A study of Bos taurus with 6 samples.

Results

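The mitochondrial ribosomal protein genes were examined in granulosa cells, the somatic cells that line the ovarian follicle, of 6 Hereford cows. Members were all array probes whose annotated gene symbol starts with MRPL or MRPS followed by a number. The rule took 128 of 43794 probes, which stand for 75 of 15216 named genes. Of these, 46 genes (78 probes) carry an MRPL symbol, for the large subunit, and 29 genes (50 probes) an MRPS symbol, for the small subunit. The rule used names alone and no measured value.

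The study asked how maternal age bears on the granulosa cell transcriptome of the dominant preovulatory follicle. Aged cows were multiparous (cows 13, 110 and 126) and young cows were nulliparous heifers (cows 11, 7 and 184), with no age in years and no genetic alteration given in the labels. All 6 cows had received prostaglandin F2 alpha and then 25 mg of luteinising hormone on day 6 of the cycle, and cells were collected on day 7, 24 h after that hormone. Cow 13 was hybridised with cow 11, cow 110 with cow 7 and cow 126 with cow 184, each pair on 2 of the 6 2-colour arrays with the dyes exchanged, so that 3 pairs are the replicates. Each cow gave 1 follicle sample, the RNA was amplified before labelling, and the labels mention mother and daughter pairs without tying them to the arrays.

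Mitochondria carry their own ribosome, which translates the few proteins encoded in mitochondrial DNA, all of them parts of the respiratory chain and ATP synthase. Its proteins are encoded in the nucleus, made in the cytosol and imported, while its RNAs come from mitochondrial DNA. The small subunit reads the messenger RNA and the large subunit forms the peptide bond. In granulosa cells the mitochondria also hold the first step of steroid synthesis.

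Several facts of the whole set of arrays touch the values below. Probes above the negative controls made up 49.3% to 71.6% of a channel, and of the 128 member probes 71.1% to 91.4% were above them. Summed signals of 13 granulosa markers, among them INHA, FST and STAR, were 18170 units in young cow 11 and 80440 to 145800 in the other 5 cows. NR5A2, on the same list, was not low in cow 11, with a log2 signal of 13.36 there and 12.81 in aged cow 13. FOXL2, NR5A1, FSHR and CYP19A1 were not tested. Summed signals of 14 epithelial markers were 147200 and 151200 in young cows 11 and 7, 32060 in young cow 184 and 13920 to 23350 in the aged cows, with CDH1, CLDN3 and CLDN7 not tested. Summed signals of leukocyte markers were 34900 in aged cow 126, 14300 in her partner 184 and 4447 to 11040 in the other cows. PTPRC, on the same list, was not higher in cow 126 than in her partner, with log2 signals of 12.03 and 12.33. CD68, CSF1R, FCER1G, ITGB2 and LCP1 were not tested. In the pairs of cows 13, 110 and 126, sums of 4 theca markers were 2068, 4764 and 4637 in the aged cow. In the young cow they were 9177, 9701 and 3610, so the age groups overlapped. The 3 tested theca markers had median log2 ratios of aged over young of -0.01, -0.14 and 0.43. Sums of endothelial markers ran from 1730 to 1865. The erythrocyte sum was lower in the aged cow of each pair, with 1305 against 2852, 1348 against 1946 and 3474 against 7173 for cows 13, 110 and 126. The oocyte markers GDF9 and ZP4 were not above background on any array. The part of these markers in the results below was not tested. Fewer cells of a type and less RNA per cell cannot be told apart in such samples. The arrays of the pairs of cows 13 and 110 carried 1 slide number and those of the pair of cow 126 other numbers. This number was read from the names of the scanner output and is not in the sample titles. Slide, so read, and pair cannot be told apart.

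Of the 75 genes, 66 could be tested by their brightest probe (44 large and 22 small subunit genes), against 8932 of all named genes. Of the 66, 61 were above background in both age groups on all arrays. The other 5, MRPL30, MRPL46, MRPL49, MRPS18B and MRPS34, entered through the aged group, with the young cows above background on 4 or 5 of 6 arrays. The 9 untested genes were MRPL2, MRPL36, MRPS7, MRPS9, MRPS12, MRPS18C, MRPS24, MRPS35 and MRPS36. MRPL36 and MRPS12, the latter a protein of the decoding centre, were not well above background on any array. MRPS18C and MRPS24 were bright enough but had a spot marked as ignored on 1 array. The same held for MRPS36 in the aged cows. MRPS7, MRPS18C and MRPS36 each had a dimmer probe that was tested. The mean log2 ratios of aged over young of these probes were 0.29, 0.66 and 0.09 (limma adjusted p = 0.461, 0.515 and 0.616). The probes of MRPS7 and MRPS18C entered through the aged group, with the young cows above background on 4 and 5 of 6 arrays. Values below are log2 ratios of aged over young, or log2 channel signals per cow, which compare cows for 1 probe and not one gene with another.

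No mitochondrial ribosomal protein gene passed the threshold. In limma with Benjamini-Hochberg adjustment over all 20595 tested probes the smallest adjusted p was 0.461, and the percentage of all tested genes called was 0. At an unadjusted p under 0.05, the array as a whole gave 1317 probes higher in the aged and 843 lower. Among members, 3 of 66 (4.55%) were higher and 0 lower at that level, while the shares of all tested genes were 7.58 and 4 percent. In this fit the share of members was thus below that of all tested genes. Without the pair of cow 126 it was 17 of 66 in either direction (25.8%, against 17.6 percent of all tested genes), and without that of cow 110 it was 0 (against 3.29 percent). What follows describes sizes, directions and their agreement between cow pairs.

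The ratios of the family lay mostly above 0, and by an amount that differed between the cow pairs. The median log2 ratio of the 66 genes was 0.22, with quartiles of 0.06 and 0.42, against 0.06 for all tested genes. By pair the members' median was 0.44 with aged cow 13, 0.20 with 110 and 0.00 with 126 (SD of the 3 medians 0.22), while the median of all tested genes was 0.02, 0.03 and 0.03. The mean ratio was positive for 58 of 66 members (87.9%), and the family median was positive under every alternative processing tried (0.14 to 0.37). In the pair of cow 13, 60 of 66 (90.9%) were higher in the aged cow, where 54.1 percent of all tested genes were. In the pair of cow 110 the count was 46 (69.7%) against 54.7 percent, and in that of cow 126 it was 33 (50%) against 54.2 percent. The young cow of the first pair is the one with the low granulosa marker sum. Both young cows of the first and second pairs are those with high epithelial and theca marker sums.

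**Figure D1:**
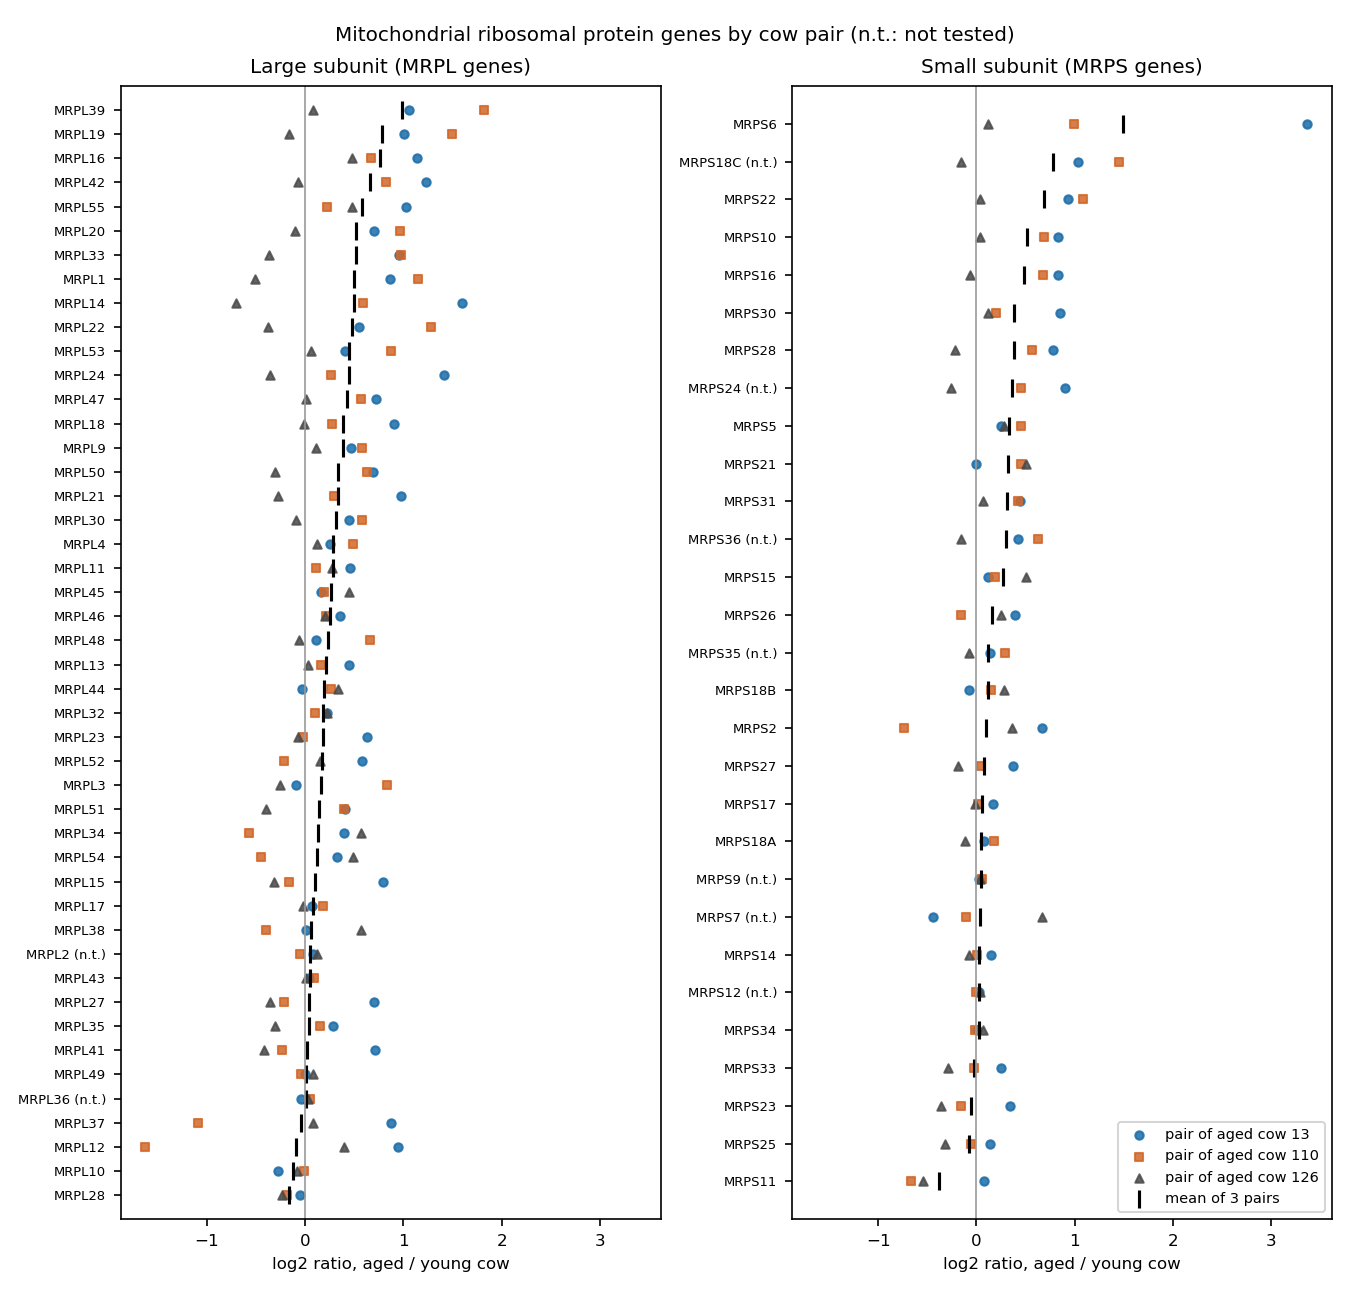
Log2 ratio of aged over young (horizontal axis) for each of the 75 genes (rows, ordered by mean), with 1 point per cow pair and a bar at the mean of the 3 pairs. Large subunit genes are on the left and small subunit genes on the right. Most points of the pair of cow 13 lie right of 0, and those of the pair of cow 126 lie on both sides.

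Direction agreed over the 3 pairs in 22 members. There were 20 genes higher in the aged cow of every pair (30.3%, against 22.6 percent of all tested genes) and 2 lower in every pair (3.03%, against 16.1 percent), MRPL10 and MRPL28. The most common pattern was another one: 22 members (33.3%, against 16.2 percent) were higher in the pairs of cows 13 and 110 and lower in that of 126, among them MRPL1, MRPL14, MRPL19, MRPL22, MRPL33 and MRPL42. A further 10 (15.2%, against 6.36 percent) were lower only in the pair of cow 110, namely MRPL12, MRPL34, MRPL37, MRPL38, MRPL49, MRPL52, MRPL54, MRPS2, MRPS26 and MRPS34. For MRPL38 the sign turned with the dyes in every pair, with -1.45 and 0.65 on the arrays of cow 110. In that pair MRPL49 (-0.04) and MRPS34 (-0.01) were close to 0. The levels of all aged cows lay above those of all young cows for 10 members (15.2%, against 12.2 percent), and the reverse held for 0 (against 6.02 percent). Without the pair of cow 126, 42 members were higher in both pairs left (63.6%, against 38.8 percent of all tested genes). Without that of cow 13, 10 were lower in both (15.2%, against 25.1 percent).

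Large single differences were no more frequent than elsewhere. An absolute log2 ratio of at least 1 was seen for 8 members in the pair of cow 13 (12.1%, against 17.9 percent of all tested genes), for 7 in that of 110 (10.6%, against 20.2 percent) and for 0 in that of 126 (against 8.92 percent). MRPL19 and MRPL39 were past that size in both the first and the second pair. Arrays of the same pair with exchanged dyes differed by a median of 0.26, 0.21 and 0.26 per member in the pairs of cows 13, 110 and 126. Between pairs the median difference was 0.30 for 13 and 110, 0.55 for 13 and 126, and 0.36 for 110 and 126. Across the 66 genes, which share the arrays and are not independent, Pearson's r between pairs was 0.30 for 13 and 110 (rho 0.39), -0.14 for 13 and 126 (rho -0.16) and -0.24 for 110 and 126 (rho -0.15). The dye-exchanged arrays correlated at 0.72, 0.77 and 0.27 in the same order of pairs, so the order of members in the pair of cow 126 was measured least repeatably.

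Brighter members had larger ratios. Members were split at a log2 signal of 9.5, chosen after their values were seen and close to their median signal of 9.51. The 33 brighter members had a median ratio of 0.34 and the 33 dimmer ones 0.16. All tested genes split at the same signal had 0.22 (3727 genes) and 0.02 (5205 genes). In the pair of cow 13 the brighter members had a median of 0.70, where equally split genes of the whole array had 0.16, and in that of cow 110 0.48 against 0.25. In the pair of cow 126 it was 0.03 against 0.07. The offset of 50 added to each signal draws the ratios of dim probes towards 0. Its part in the difference between brighter and dimmer members was not tested.

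**Figure D2:**
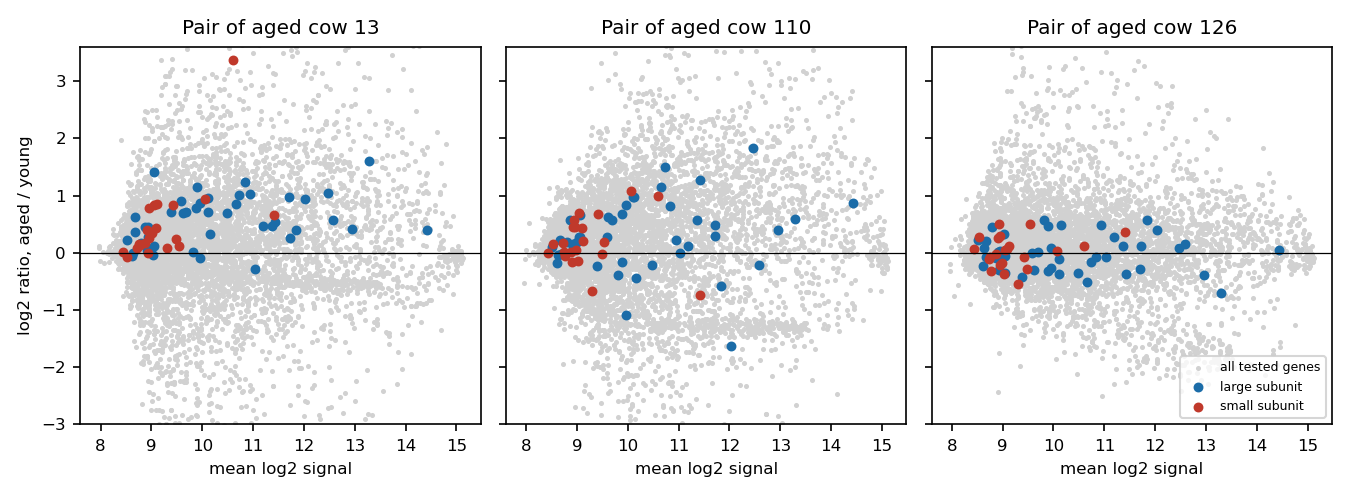
Log2 ratio of aged over young (vertical axis) against mean log2 signal (horizontal axis), 1 panel per cow pair, with the 8932 tested genes in grey and the 66 members coloured by subunit. Grey points beyond the vertical axis are not drawn. Members with an absolute ratio of at least 1 number 8, 7 and 0 in the 3 panels. Among the 7, MRPL12 (-1.63) and MRPL37 (-1.09) lie below 0.

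Large and small subunit genes did not differ by more than the spread between pairs. The median log2 ratio of the 44 large subunit genes was 0.25, with 0.50, 0.24 and -0.02 in the pairs of cows 13, 110 and 126. That of the 22 small subunit genes was 0.14, with 0.30, 0.16 and 0.04. The large minus small difference was thus 0.21, 0.08 and -0.05 by pair, and 0.11 between the medians of means (SD over pairs 0.13). Higher in every pair were 13 of 44 large subunit genes (29.5%) and 7 of 22 small subunit genes (31.8%). The median signal was 9.96 for large and 9.0 for small subunit genes, and only 4 small subunit genes, MRPS2, MRPS6, MRPS15 and MRPS22, were among the brighter ones. Within the dimmer genes the medians were 0.18 (15 large) and 0.10 (18 small), and within the brighter genes the order was the other way, with 0.34 (29 large) and 0.48 (4 small). MRPS30 and MRPS18A sit in the large subunit of mammalian mitochondrial ribosomes despite their names. Counting them there left the medians at 0.25 and 0.14.

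Among large subunit genes, those of the stalk, where translation factors dock, went different ways. MRPL12, the stalk protein itself, had log2 signals of 12.18, 11.40 and 12.33 in aged cows 13, 110 and 126, and 11.24, 13.03 and 11.94 in young cows 11, 7 and 184. Young cow 7 was the highest of the 6, and the groups overlapped. The ratios were 0.94, -1.63 and 0.39 (mean -0.10 ± 1.35, SD, n = 3), the widest disagreement in direction of any named member, and the mean is positive by median centring (0.18) or without the pair of cow 110 (0.67). MRPL10, which anchors MRPL12, had signals of 11.23, 11.02 and 10.68 in aged and 11.51, 11.02 and 10.77 in young cows. Its ratios were small and negative (mean -0.12 ± 0.14, SD, n = 3) and became 0.18 by median centring. MRPL11, at the base of the stalk, was higher on all 6 arrays, with ratios of 0.46, 0.11 and 0.28 (mean 0.28 ± 0.17, SD, n = 3; limma adjusted p = 0.484). Its mean was 0.06 with spot medians and 0.59 by median centring. In the authors' deposited table it was lower in the aged cow of pair 110, with 0.47, -0.38 and 0.10 by pair and a mean of 0.06.

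Core proteins of the large subunit with bacterial relatives included the member with the clearest separation of the groups by the brightest probe. MRPL16, which lies near the tRNA binding sites, had log2 signals of 10.54, 10.07 and 10.19 in aged cows and 9.40, 9.40 and 9.72 in young cows. The lowest aged cow stood 0.36 above the highest young cow. The ratios were 1.14, 0.67 and 0.48 (mean 0.76 ± 0.34, SD, n = 3), a 1.70-fold difference, with a limma p of 0.0202 before and 0.461 after Benjamini-Hochberg adjustment. This is the single member that passed in the fit with no replicate block, which takes the 6 arrays as independent (adjusted p = 0.046, limma). MRPL16 overlaps STX3 in the RefSeq annotation, and array probes do not tell which overlapping gene gave a signal where both hold it.

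MRPL19 had signals of 11.30, 11.45 and 10.62 in aged cows and 10.30, 9.95 and 10.78 in young cows. Aged cows 13 and 110 were about 1 log2 unit or more above their partners, and cow 126 was below hers. Its ratios of 1.01, 1.49 and -0.16 gave a mean of 0.78 ± 0.85 (SD, n = 3; limma adjusted p = 0.581). MRPL14 (overlapping TMEM63B in RefSeq), a partner of the assembly factor MALSU1 on the joining face, had signals of 13.65, 14.07 and 12.93 in aged and 12.05, 13.48 and 13.63 in young cows. It was among the 4 brightest members, and its ratios ran from 1.60 to 0.59 and -0.70. Its mean of 0.50 rests on the pair of cow 13, without which it was -0.06. MRPL3, mutated in a form of human cardiomyopathy, was higher in the aged cow of pair 110 (0.83) and lower in the other pairs (-0.09 and -0.26), with a mean of 0.16 that was -0.18 without that pair.

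MRPL32, whose maturation by a mitochondrial protease precedes ribosome assembly in yeast and mouse, was a dim probe with 8.57, 8.55 and 8.68 in aged and 8.36, 8.45 and 8.45 in young cows. The aged cows were all above the young ones, by 0.22, 0.10 and 0.23 within pairs (mean 0.18 ± 0.07, SD, n = 3; limma adjusted p = 0.483). MRPL28 was lower on all 6 arrays, alone among members, with 8.58, 8.65 and 8.43 in aged and 8.63, 8.83 and 8.67 in young cows. The difference was small (mean -0.16 ± 0.09, SD, n = 3; limma adjusted p = 0.527), the probe was dim and the groups overlapped. The other tested probes of MRPL28 gave -0.06 and 0.07.

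**Figure D3:**
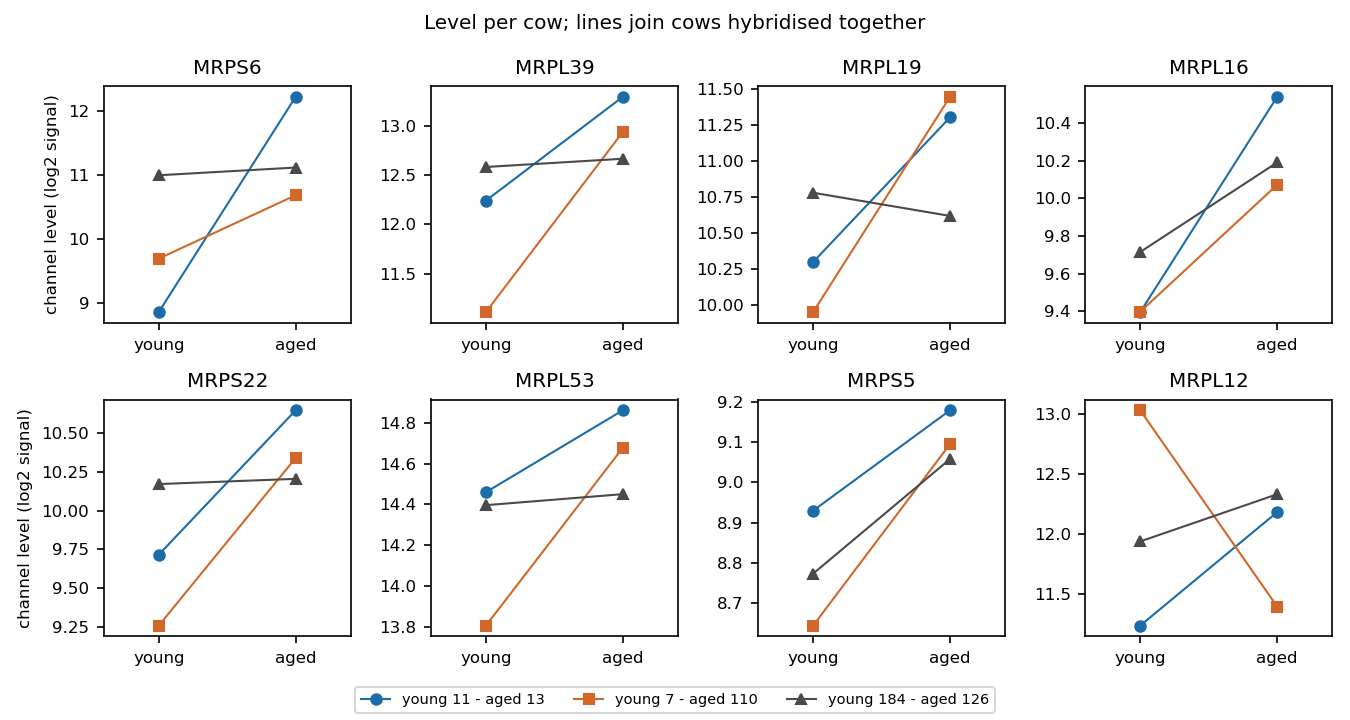
Log2 channel signal of 8 members in each cow, averaged over both dye orientations, with lines joining the cows that shared arrays; vertical scales differ by panel. MRPL16 and MRPS5 are higher in the aged cow of all 3 pairs, and MRPL12 is highest in young cow 7.

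The proteins found only in mitochondrial ribosomes held the largest mean ratio of the large subunit. MRPL39, related in sequence to threonyl-tRNA synthetases, had log2 signals of 13.29, 12.94 and 12.66 in aged cows and 12.24, 11.11 and 12.58 in young cows. All aged cows were above all young cows, by 0.08 at the closest. The ratios of 1.05, 1.83 and 0.08 gave a mean of 0.99 ± 0.87 (SD, n = 3; limma adjusted p = 0.528). Its other tested probes, both dimmer, gave 0.64 and 0.15, the last with the young cows above background on 1 of 6 arrays. MRPL53 was the brightest member, with 14.86, 14.68 and 14.45 in aged and 14.46, 13.80 and 14.40 in young cows. It was higher on all 6 arrays, with a mean ratio of 0.44 ± 0.41 (SD, n = 3; limma adjusted p = 0.544), and the lowest aged and highest young cow nearly met.

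MRPL46 was higher in every pair by similar amounts, 0.36, 0.21 and 0.20 (mean 0.26 ± 0.09, SD, n = 3), with a limma p of 0.0289 before and 0.461 after adjustment. It is 1 of the 5 genes that entered through the aged group. MRPL45, at the exit of the peptide tunnel next to the inner membrane, was higher by 0.16, 0.19 and 0.44 (mean 0.27 ± 0.15, SD, n = 3; limma adjusted p = 0.482), and its other probe gave -0.05. MRPL44, which has a fold like that of ribonuclease III, gave -0.03, 0.27 and 0.33 (mean 0.19 ± 0.19, SD, n = 3). Other bright genes lay close to 0 on average, MRPL51 (overlapping VAMP1 in RefSeq) with 0.41, 0.40 and -0.40 (mean 0.14) and MRPL52 with 0.58, -0.21 and 0.15 (mean 0.17).

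Members of the commonest patterns were looked at further, chosen after their values were seen. In the pattern higher with cows 13 and 110 and lower with 126, MRPL1 had log2 signals of 11.00, 11.22 and 10.50 in aged and 10.14, 10.07 and 11.01 in young cows. Young cow 184 was thus close to aged cow 13, and the other young cows lay lower. MRPL22, next to the peptide exit tunnel, had 11.92, 11.83 and 11.27 in aged and 11.37, 10.55 and 11.65 in young cows, with ratios of 0.54, 1.28 and -0.38. Its other probes gave means of 0.28 and 0.24 and were not lower in the pair of cow 126 (0.06 and 0.11). MRPL33 gave 0.96, 0.97 and -0.37 and MRPL42 1.23, 0.82 and -0.07. The other tested probe of MRPL42, a dim one, gave 0.77, 0.17 and 0.44, without the pattern. It entered through the aged group, with the young cows above background on 2 of 6 arrays. By the brightest probe of each of these genes, the young cow of the last pair was brighter than the other young cows.

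Members lower only in the pair of cow 110 reached that pattern in different ways. MRPS2, a small subunit core protein, had signals of 11.42, 11.56 and 11.39 in aged and 10.75, 12.30 and 11.02 in young cows. The aged cows were nearly level, and young cow 7 stood above them, as it did for MRPL12. MRPL37 had 10.62, 9.40 and 9.79 in aged and 9.74, 10.48 and 9.71 in young cows, with aged cow 110 lowest and young cow 7 second to aged cow 13. MRPL34 had 12.69, 10.98 and 12.11 in aged and 12.30, 11.56 and 11.54 in young cows, where aged cow 110 was low and young cow 7 was not high.

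By the brightest probe of each gene, the groups of 10 members did not overlap. The widest gaps after MRPL16 were those of MRPL55 (0.22), MRPS5 (0.13) and MRPL9 (0.11). The others were MRPL32, MRPL39, MRPL47, MRPS10, MRPS22 and MRPS31, with gaps of 0.09 or less. A dimmer probe of MRPS11 had a gap of 0.49, wider than that of MRPL16. MRPL55 had signals of 11.53, 11.01 and 11.16 in aged and 10.50, 10.80 and 10.68 in young cows. Its mean ratio was 0.57 by the brightest probe (limma adjusted p = 0.493), and its other probes gave 0.32 and 0.62, so 3 probes of this gene had the same sign. MRPL55 overlaps GUK1 in the RefSeq annotation. MRPL9, a core protein, had signals of 11.63, 11.57 and 11.48 in aged and 11.16, 10.99 and 11.37 in young cows, with ratios of 0.47, 0.58 and 0.11 (limma adjusted p = 0.481).

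The small subunit held the member with the largest mean ratio. MRPS6, a core protein with a bacterial relative, had log2 signals of 12.22, 10.68 and 11.11 in aged cows 13, 110 and 126 and 8.85, 9.69 and 10.99 in young cows 11, 7 and 184. Young cow 11 was the lowest of the 6, and young cow 184 was above aged cow 110. The ratios were 3.37, 0.99 and 0.12 (mean 1.49 ± 1.68, SD, n = 3; limma adjusted p = 0.587). Without the pair of cow 13 the mean was 0.56. MRPS6 overlaps SLC5A3, a myo-inositol transporter gene, in the RefSeq annotation. Young cow 11 also had the lowest summed granulosa marker signal, though not a low NR5A2 signal.

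MRPS5, which takes part in decoding accuracy, had the smallest p of the members. Its signals were 9.18, 9.10 and 9.06 in aged cows and 8.93, 8.64 and 8.77 in young cows. The groups did not overlap, and the ratios were 0.25, 0.45 and 0.29 (mean 0.33 ± 0.11, SD, n = 3), a 1.26-fold difference. The limma p was 0.019 before and 0.461 after adjustment. The authors' deposited table gave MRPS5 ratios of -0.02, 0.47 and 0.10, so the agreement of all 3 pairs does not hold there. MRPS22, a mitochondria-specific protein whose human gene is mutated in some cases of ovarian failure, had 10.65, 10.34 and 10.21 in aged and 9.72, 9.26 and 10.17 in young cows. Its ratios of 0.93, 1.09 and 0.03 gave a mean of 0.68 ± 0.57 (SD, n = 3; limma adjusted p = 0.518). Its second probe gave 0.31 and entered through the aged group, with the young cows above background on 3 of 6 arrays.

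MRPS16 followed the same course, with ratios of 0.84, 0.68 and -0.07 (mean 0.48 ± 0.48, SD, n = 3), and MRPS30, the misnamed large subunit protein, gave 0.85, 0.20 and 0.12 (mean 0.39 ± 0.40, SD, n = 3). MRPS15 was higher mostly in the pair of cow 126, with 0.12, 0.19 and 0.50 (mean 0.27 ± 0.20, SD, n = 3). MRPS27, a pentatricopeptide repeat protein that binds RNA and whose gene overlaps LOC107131556 in RefSeq, gave 0.37, 0.05 and -0.19, with a mean of 0.08 that was -0.07 without the pair of cow 13. The 3 MRPS18 paralogues differed: MRPS18A had a mean of 0.05, MRPS18B of 0.12, and MRPS18C (overlapping ABRAXAS1 in RefSeq), whose brightest probe was untested, had 1.04, 1.45 and -0.15 on the arrays left and a mean of 0.66 by its second probe (limma adjusted p = 0.515).

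MRPS11 had the lowest mean ratio and the widest disagreement between probes. Its brightest probe gave 0.08, -0.67 and -0.54 (mean -0.38 ± 0.40, SD, n = 3; limma adjusted p = 0.581), while its other tested probes gave 0.55 and 0.21. The unadjusted limma p of the probe at 0.55 was 0.00211, the smallest of any member probe (adjusted p = 0.461). No direction can be given for this gene. In all, 25 members had several tested probes. Of 30 dimmer probes, 19 had the sign of the brightest one and 20 had a smaller absolute ratio. Of the 30, 10 entered through the aged group and 1 through the young group.

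**Figure D4:**
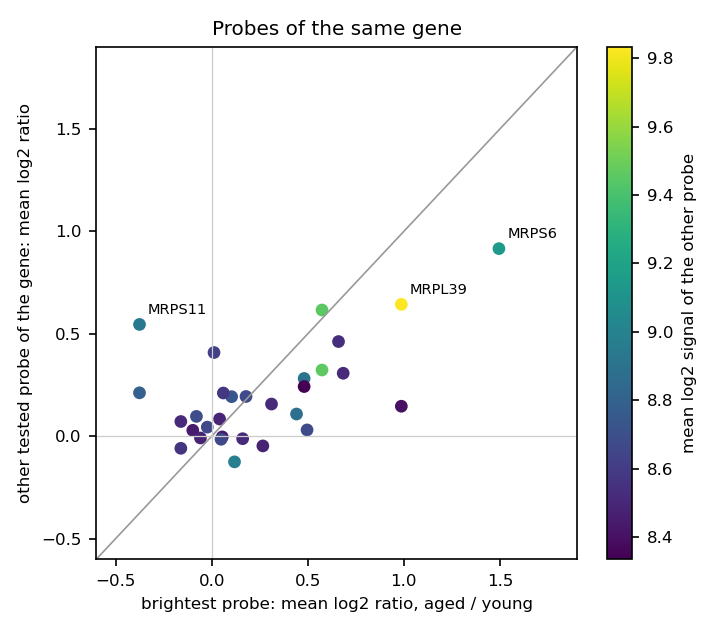
Mean log2 ratio of each of the 30 dimmer tested probes (vertical axis) against that of the brightest probe of the same gene (horizontal axis), coloured by mean log2 signal of the dimmer probe; the diagonal marks equality. MRPS11 is at the upper left, with 0.55 against -0.38, and MRPS6 at the upper right, with 0.92 against 1.49.

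Other parts of mitochondrial translation were read from lists of related genes. Of 6 mitochondrial ribosomal proteins with other symbols, 5 were tested and 0 passed the threshold; their median ratio was 0.20. They included DAP3, a GTP-binding small subunit protein, with 0.06, 0.23 and 0.21. MRPL58, annotated on the array as ICT1 and a release factor built into the large subunit, gave 0.79, 0.42 and -0.01 (mean 0.40 ± 0.40, SD, n = 3; limma adjusted p = 0.561). Of 16 translation factors and messenger RNA partners, 13 were tested, with a median of 0.16. LRPPRC, which stabilises mitochondrial messenger RNAs, gave 1.07, 1.18 and 0.07, and the elongation factor GFM1 gave 0.86, 1.72 and -0.72.

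Of 22 assembly factors 9 were tested, with a median of 0.33, and C1QBP (0.67, 0.70 and 0.26) and MTERF3 (0.19, 0.47 and 0.33) had unadjusted p under 0.05. The 7 tested genes of mitochondrial DNA expression had a median of 0.28, the tRNA processing subunit TRMT10C being higher in every pair by 0.73, 0.87 and 0.37 (limma adjusted p = 0.461). The 10 tested mitochondrial aminoacyl-tRNA synthetases had a median of -0.02. The 8 tested regulators of mitochondrial genes also had -0.02, and NRF1, a transcription factor for many nuclear genes of mitochondrial proteins, was lower in the aged cow of each pair by -0.40, -1.36 and -1.56 (limma adjusted p = 0.461). None of these genes passed the threshold. Products of mitochondrial DNA were not analysed here.

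The cytosolic ribosomal proteins, the counterpart family, showed another order of the pairs. The 67 tested genes had a median log2 ratio of -0.05, which was 0.15 by median centring. By pair their medians were -0.19, -0.10 and 0.20 for cows 13, 110 and 126, where the mitochondrial family had 0.44, 0.20 and 0.00. Higher in the aged cow were 10, 27 and 52 of 67 cytosolic genes by pair, against 54.1, 54.7 and 54.2 percent of all tested genes. Only 3 were higher and 6 lower in all 3 pairs (against 22.6 and 16.1 percent of all tested genes), and 0 passed the threshold. The cytosolic genes were far brighter, with a median signal of 13.81, and the difference between the families was not tested.

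**Figure D5:**
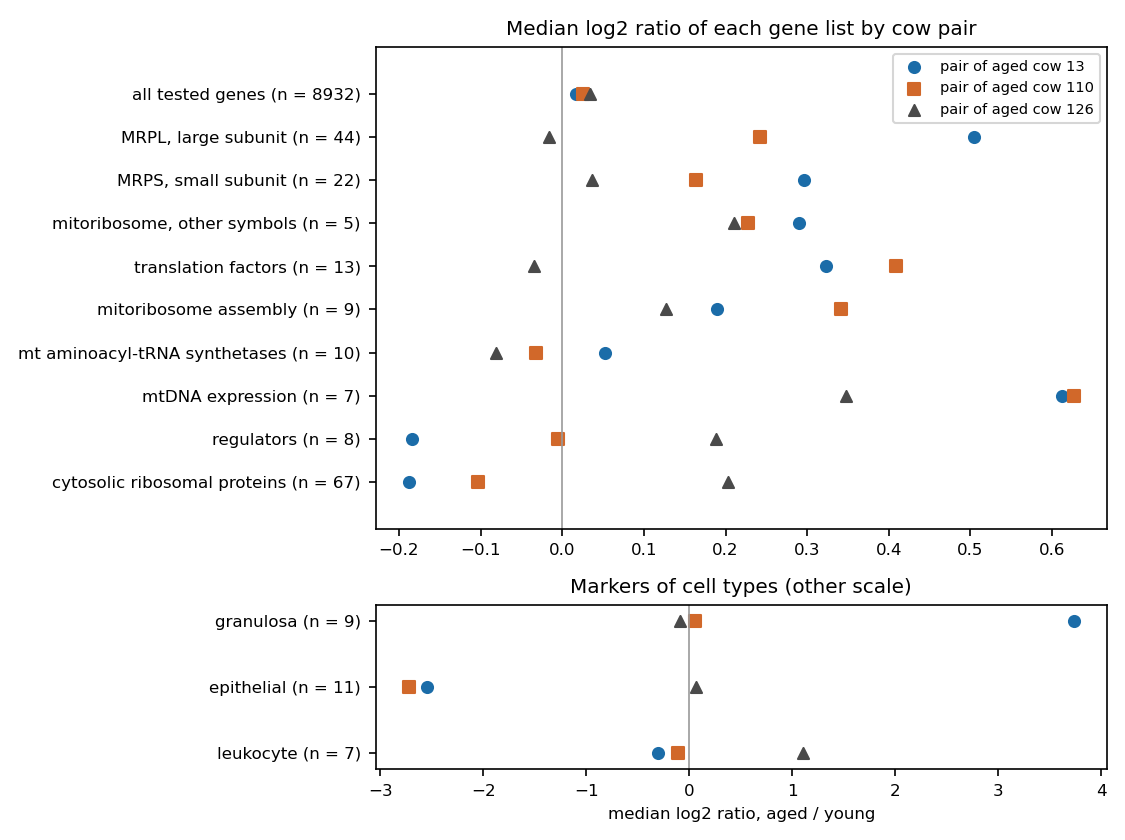
Median log2 ratio of aged over young (horizontal axis) of each gene list, 1 point per cow pair, with the number of tested genes in brackets; the lower panel has a wider scale. Large and small subunit genes order the pairs as 13, 110 and 126 from high to low, and cytosolic ribosomal proteins order them the other way.

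The marker lists moved by pair on a larger scale. Granulosa markers (9 tested) had medians of 3.74, 0.05 and -0.09, epithelial markers (11 tested) -2.54, -2.72 and 0.07, and leukocyte markers (7 tested) -0.30, -0.11 and 1.11. The 2 tested erythrocyte markers had medians of -1.52, -0.70 and -0.73 but differed from each other. HBB, a haemoglobin chain, had -0.81, -1.40 and -1.33, and SLC4A1 had -2.24, 0.01 and -0.13. HBA and ALAS2 were not tested. In the pair of cow 126 the medians of granulosa and epithelial markers lay near 0, though some single markers did not. STAR had 1.68 and NR5A2 -1.86 among the granulosa markers, and KRT19 0.62 and PERP -1.67 among the epithelial ones. That pair was also the one with a member median of 0.00. With median centring in place of loess the members' medians were 0.44, 0.26 and 0.26, so the value near 0 in that pair holds for loess and not for that scaling.

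The authors' deposited table gave a similar picture. In it the median log2 ratio of the 66 members was 0.58, 0.28 and -0.08 in the pairs of cows 13, 110 and 126. By the same deposited table of the authors, large subunit genes had 0.60, 0.34 and -0.13 and small subunit genes 0.37, 0.18 and -0.01. All 75 members, the untested ones included, had a median of mean ratios of 0.25 in the authors' deposited table. For single members the mean ratio in the authors' deposited table could be far from the one above. It was 0.49 for MRPL16, 0.40 for MRPL46, -0.34 for MRPL28, 0.27 for MRPL14 and 0.03 for MRPL51 in the authors' deposited table. MRPL32 there had 0.67, -0.25 and 0.43, and MRPL53 0.26, 0.60 and -0.15, so in the authors' deposited table neither was higher in every pair.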

How the data were processed

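Spot intensities were deposited as scanner output, per the file headers on a linear scale and not normalised, with another column per the file headers that marks ignored spots (42 to 113 per array). The authors deposited log2 values as well, and the submitters' processing notes name limma. Set against the scanner values, all 6 deposited columns ran as aged over young (r 0.819 to 0.939), each centred near 0 (medians -0.0092 to 0.0036), with background correction and filter unknown. The column medians were -0.0016 and -0.0092 for cow 13, -0.0083 and -0.002 for cow 110, and 8e-04 and 0.0036 for cow 126.

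Spot means were corrected by normexp (offset 50) and loess within arrays in limma 3.58.1 (R 4.3.3). Each pair entered lmFit and eBayes as the mean of its 2 arrays, giving 3 values per probe, with two-sided p-values adjusted by Benjamini-Hochberg over the tested probes and a threshold of 0.05. Pairs are defined by the arrays that both cows shared, which puts the pairing into every ratio. A probe was tested where it exceeded the mean + 2 SD of 153 negative control spots, ignored ones left out, in at least 1 age group on all arrays. Levels per cow are channel signals after loess and Aquantile. The number of arrays limits the precision, and the scripts were tested on simulated data.

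Symbols came from the platform annotation, updated through RefSeq synonyms (ARS-UCD2.0). All 75 member symbols stood in that table. Members and lists were chosen with earlier results of these data known. Values in full were to be given for members with the smallest p and 1 sign on all 6 arrays, the extremes of mean ratio, the 4 brightest, those whose probes differed by over 0.5, and a set list, 29 genes in all. Sequences and coordinates are not used here.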

Additional observations from a re-analysis of the deposited data

How the results depend on the processing

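No member passed the threshold under any of the alternatives tried except the fit with no replicate block, in which 362 probes and 1 member (MRPL16) did. The members' median ratio stayed positive, between 0.144 (without the pair of cow 13) and 0.370 (median centring). The median of all tested genes moved by at most 0.06. With spot medians the small subunit median was 0.29 in place of 0.14. The count of members with an unadjusted p under 0.05 in limma was 3 as reported (4.55%, against 11.6 percent of all tested genes). It was 6 (9.09%) without background correction, with scaling between arrays and with slide as a block, against 11.4, 9.47 and 14.3 percent of all. It was 5 with the mean over probes (7.25% against 9.97 percent), 7 without the filter (9.33% against 9.03 percent), and 8 or 10 with aged cows in Cy5 or Cy3 only (12.1% and 15.2%, against 13.5 and 14.2 percent). It was 13 with the pair as a random replicate block (19.7% against 16.4 percent), 23 with no replicate block (34.8% against 27.5 percent) and 20 by median centring (30.3% against 18 percent). On leaving out 1 pair it was 0 to 17, the 17 without that of cow 126, which leaves the single slide number with several pairs. Members higher in all pairs were 40 by median centring (60.6% against 29.8 percent) and 23 to 42 on leaving out 1 pair (34.8%, 45.5% and 63.6% without cows 13, 110 and 126, against 33.9, 29 and 38.8 percent). Members lower in all pairs were 1 with spot medians or the mean over probes, 5 in Cy5 only and 2 to 10 on leaving out 1 pair, in each case a smaller share than that of all tested genes. Signs turned for MRPL10 (0.18) and MRPL12 (0.18) by median centring, for MRPL12 (0.0504), MRPL51 (-0.0263), MRPS18A (-0.0002) and MRPS27 (-0.0022) with slide as a block, for MRPL51 (-0.0903) and MRPS18A (-0.0612) in Cy5 only, for MRPL3 (-0.059), MRPS11 (0.18) and MRPS27 (-0.0894) in Cy3 only and for MRPS11 (0.13) with the mean over probes. On leaving out 1 pair the ranges that crossed 0 were -0.62 to 0.67 for MRPL12, -0.0559 to 1.10 for MRPL14, -0.18 to 0.37 for MRPL3, -0.0308 to 0.36 for MRPL52, -0.015 to 0.13 for MRPS18A and -0.0675 to 0.21 for MRPS27. Other results of the 29 genes given in full kept their direction and side of the threshold. The causes were not tested. Dim probes limit what the small subunit values can show.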
